A study of Homo sapiens with 4 samples.

Results

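The lysosomal genes described here are 47 named genes: proteases, sugar-cleaving enzymes and lipid-handling proteins of the lysosome's interior, proteins of its membrane, subunits of its proton pump, and the transcription factors TFEB and TFE3. They were found in the deposited tables by symbol, in 52 of the 20323 rows, and all 47 passed the filter on low counts that left 12560 genes for testing. CTSD, HEXA and CLN3 each had 2 rows and MAN2B1 had 3, and the row with the most counts stands for the gene unless the sum is named. The data are ribosome footprints, the pieces of messenger RNA that a translating ribosome shields from RNase, from HCT-8 cells, a line of human colorectal cancer selected for resistance to 5-fluorouracil (5-FU). All libraries came from these resistant cells treated with cycloheximide (CHX) at 100 ug/mL, which stalls ribosomes. The NC group (n = 2) was transfected with negative control plasmids and the OE group (n = 2) with METTL14 overexpression plasmids. METTL14 is the RNA-binding partner of the enzyme that writes N6-methyladenosine into messages. The series' title and design ask which messages change in translation when METTL14 is raised in the resistant cells.

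Lysosomes are acidic compartments in which proteins, glycans and lipids are taken apart. Their enzymes are made on ribosomes of the endoplasmic reticulum (ER) with a signal peptide, tagged in the Golgi with mannose 6-phosphate and carried onward. The acid comes from the V-ATPase, a rotary pump whose V0 sector sits in the membrane and whose V1 sector is assembled from proteins made in the cytosol. TFEB and TFE3 bind a shared DNA element in front of many of these genes and raise their transcription when nutrients are short. Intestinal epithelial cells, from which HCT-8 derives, use lysosomes to break down cargo taken up from the lumen and for autophagy.

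Library totals ran from 7742274 counts (OE replicate 1) to 24392875 (OE replicate 2), and p-values measure the spread between 2 libraries per group, which the design text calls independent experiments. The NC libraries were close to each other, with a standard deviation of 0.46 for the log2 difference over genes, against 1.30 between the OE libraries. OE replicate 1 stood apart in a way that depended on level. Set against the NC mean, its median difference (log2) was 1.17 in the lowest decile of genes by NC level and -1.08 in the highest, where OE replicate 2 had -0.09 and -0.08. METTL14 had 44.5 and 47.6 CPM (a count as its share of the scaled library total) in NC, against 448 and 91.2 CPM in OE, giving a log2 fold change of 2.55 (SE 0.81; adjusted p = 0.734 by edgeR and 0.0495 by DESeq2). The 12 epithelial markers summed to 22120 and 21512 CPM in NC and to 6383 and 24941 CPM in OE, so the sum was low in OE replicate 1, as most lysosomal genes were; its part in their values was not tested. Most of the sum came from KRT8, KRT18 and KRT19, at 9116, 6238 and 3834 CPM in NC replicate 1. ELF3 went the other way, with 29.6 and 29.7 CPM in NC against 55.1 and 34.5 CPM in OE replicates 1 and 2. CDX2 was not low either, with 27.1 and 21.9 CPM in NC against 27.2 and 44.3 CPM in OE. The rest of the 12 except KRT20 lay below NC in OE replicate 1. KRT20 had 0.463 to 1.45 CPM and CDX1 2.67 to 6.42 CPM. The 13 leukocyte and macrophage markers summed to between 12.4 and 13.6 CPM in NC and to 4.95 and 5.02 CPM in OE, of which CD14 made up 11.5 and 8.97 CPM in NC against 2.47 and 2.80 CPM in OE, with CD163, TYROBP, AIF1 and CD3E at a count of 0 throughout. The 9 fibroblast markers summed to between 2.99 and 10.3 CPM, with THY1 and FAP at a count of 0 throughout, and the 6 endothelial markers to at most 0.476 CPM.

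For most lysosomal genes, footprints in each OE library lay below those of NC. The 52 rows held 1.29% of all counts in each NC library, 0.909% in OE replicate 1 and 1.12% in OE replicate 2. Both OE libraries lay below both NC libraries for 28 of the 47 genes, against 20.4% of all tested genes, and above both for 1 (TFE3), against 19.9%. The other 18 overlapped between the groups: all 8 subunits of the V1 sector of the proton pump, ATP6V0D1, CTSA, CTSH, GLA, NEU1, LIPA, NPC2, LAMP2, CLN3 and MCOLN1. At an NC mean of at least 50 CPM, the median log2 fold change was -0.52 for lysosomal genes and -0.26 for all genes. Within the highest decile of genes by NC level it was -0.59 and -0.43. Over all 47 lysosomal genes it was -0.47, beside 0.09 over all tested genes. In OE replicate 1 the median difference from the NC mean was -0.97 and in OE replicate 2 it was -0.13, beside 0.02 and 0.00 over all tested genes, while the NC libraries differed from each other by a median of 0.02.

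None of the 47 genes passed edgeR's quasi-likelihood test (0 called, 0% of all tested genes called), and 1 of them, CD68, had an unadjusted p below 0.05, beside 691 of all genes. DESeq2's Wald test and edgeR's likelihood ratio test called 0 of the 47 as well, while calling 25 and 29 genes over the whole table. A footprint count reflects the amount of a message as well as its ribosome load, and fewer cells carrying a message cannot be told apart from less of it per cell.

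The lysosomal genes were abundant, and abundance moved with the change in OE replicate 1, so counts are given beside genes of like level too. Of the 47, 27 were in the highest decile of genes by NC level (counts, not per length) and 12 in the next. Among the 43 with an NC mean of at least 50 CPM, 27 lay lower in both OE libraries and 0 higher, beside 35.6% and 5.07% of all genes at that level. Within the highest decile it was 21 of 27, beside 45% of the genes there, a background added after the level dependence was seen. In that decile the median in OE replicate 1 was -1.06 for the lysosomal genes and -1.08 for all genes, and in OE replicate 2 it was -0.22 and -0.08. The low values in OE replicate 1 were as low as those of other abundant genes, and in OE replicate 2 their median was the lower one. How much of the count in both libraries goes with level was not tested.

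**Figure D1:**
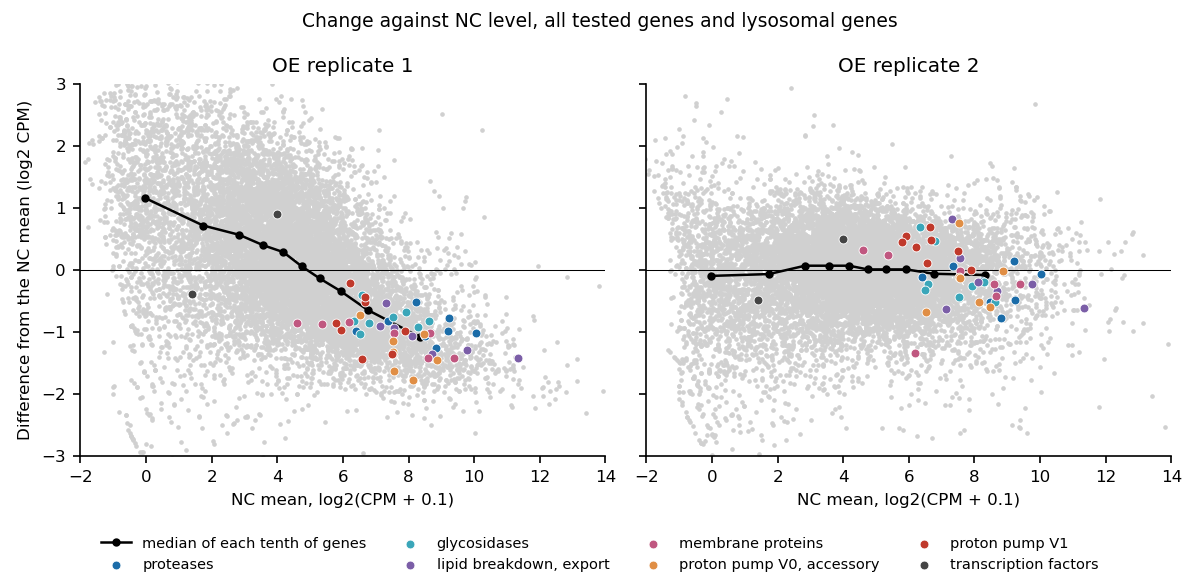
Difference of each OE library from the NC mean (vertical, log2 CPM) against the NC mean (horizontal, log2 of CPM + 0.1) for all tested genes (grey), the medians of deciles of genes by NC level (black line) and the lysosomal genes (coloured by role). The line slopes from 1.17 to -1.08 in OE replicate 1 and stays near 0 in OE replicate 2; 206 and 63 genes beyond 3 on the vertical axis are not drawn, none of them a lysosomal gene.

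Of the regulators TFEB and TFE3, TFE3 lay above NC in both OE libraries, and no difference was detectable for TFEB. TFE3 (ENSG00000068323) had 15.7 CPM in both NC libraries and 29.5 and 22.2 CPM in the OE libraries. Both OE libraries were above NC, and their 95% exact Poisson intervals (counting error only) ran from 26.3 to 33.0 and from 20.3 to 24.3 CPM, above the NC intervals of 13.9 to 17.5 and 13.8 to 17.6 CPM. The log2 fold change was 0.72 (SE 0.31; adjusted p = 0.734 by edgeR's quasi-likelihood test). In the decile to which TFE3 belongs by NC level, the median differences were 0.29 and 0.07 in OE replicates 1 and 2, below the 0.91 and 0.50 of TFE3. TFEB (ENSG00000112561) was scarce, with 2.27 and 2.81 CPM in NC against 1.90 and 1.76 CPM in OE, from 20 to 48 counts per library. Both OE values were below NC, but the interval of OE replicate 1, from 1.16 to 2.94 CPM, covered both NC values, so no difference was detectable at this depth. Its log2 fold change was -0.47 (SE 0.58; edgeR adjusted p = 0.83).

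The element that these factors bind has a palindromic core, TCACGTGA, and was looked for in the promoters (250 bases before to 50 after each start) that RefSeq's table for GRCh38.p14 holds for 36 of the 47 genes. Of these 36, 7 had it (19.4%), beside 321 of 27305 genes in the table (1.18%), and a palindrome reads the same on both strands. Its 6-base centre, CACGTG, the general E-box, which every such match contains, was present in 11 of the 36 (30.6%) and in 8.77% of all genes. The matches are shown so that the promoters counted here can be read; capitals mark the core, 11 bases are given on each side, and each is written 5′ to 3′ on the gene's strand.
LAMP1, chr13:113297199-113297228, plus strand: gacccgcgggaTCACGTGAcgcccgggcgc
LAMP1, chr13:113297226-113297255, plus strand: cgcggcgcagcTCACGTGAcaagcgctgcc
GAA, chr17:80101493-80101522, plus strand: gggaggccgcgTCACGTGAcccaccgcggc
GAA, chr17:80101538-80101567, plus strand: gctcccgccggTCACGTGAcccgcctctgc
MCOLN1, chr19:7522571-7522600, plus strand: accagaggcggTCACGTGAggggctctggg
MCOLN1, chr19:7522598-7522627, plus strand: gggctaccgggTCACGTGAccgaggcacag
CTSA, chr20:45891298-45891327, plus strand: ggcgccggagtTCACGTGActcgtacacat
CLN3, chr16:28492058-28492087, minus strand: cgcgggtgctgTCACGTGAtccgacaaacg
ATP6V0D1, chr16:67481199-67481228, minus strand: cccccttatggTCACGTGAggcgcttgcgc
ATP6V1G1, chr9:114587699-114587728, plus strand: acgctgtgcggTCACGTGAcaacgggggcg

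The cores began between 2 and 77 bases upstream of an annotated start, and LAMP1, GAA and MCOLN1 carried 2 each. These coordinates are RefSeq's and not those of the deposited files. Of the 7 genes with the core, 2 (GAA and LAMP1) were lower in both OE libraries and 5 overlapped. Of the 29 without it, 20 were lower, 1 was higher and 8 overlapped. Among all tested genes 20.4% were lower and 19.9% higher. Among those with an NC mean of at least 50 CPM it was 35.6% and 5.07%. The median difference from NC was -0.98 and 0.14 in OE replicates 1 and 2 for the 7, and -0.91 and -0.22 for the 29. No test compares these groups, and a match to the letters is not evidence of binding.

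Of the 8 proteases, 6 (75%) were lower in both OE libraries, beside 20.4% of all tested genes and 45% of the highest decile by NC level. Their median log2 fold change was -0.47, and CTSL, TPP1 and CTSB were well below NC in each OE library. CTSL, a cysteine endopeptidase, had 463 and 443 CPM in NC against 189 and 265 CPM in OE. Both OE libraries were far below NC (453 ± 14.6 against 227 ± 53.5 CPM, SD, n = 2 each), with the lowest p of the proteases (log2 fold change -1.0, SE 0.43; edgeR adjusted p = 0.734). TPP1, which clips tripeptides from the ends of proteins, had 357 and 361 CPM in NC against 171 and 250 CPM in OE, giving a log2 fold change of -0.77 (SE 0.42). CTSB, another cysteine protease, had 615 and 587 CPM in NC against 351 and 432 CPM in OE. In these 3 genes neither OE library came near the NC values. CTSD, the aspartic protease, had 1079 and 1029 CPM in NC against 523 and 1014 CPM in OE. Its OE replicate 2 was just under NC and its OE replicate 1 was 0.497 of the NC mean; summing its 2 rows gave 1140 and 1099 CPM in NC against 574 and 1069 CPM in OE. CTSC, which activates granule proteases, and CTSZ followed the same pattern, with differences of -0.12 and -0.18 in OE replicate 2. CTSA, which also protects GLB1 and NEU1 from degradation, and the aminopeptidase CTSH overlapped between the groups, with 0.14 and 0.06 in OE replicate 2 and -0.98 and -0.82 in OE replicate 1.

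**Figure D2:**
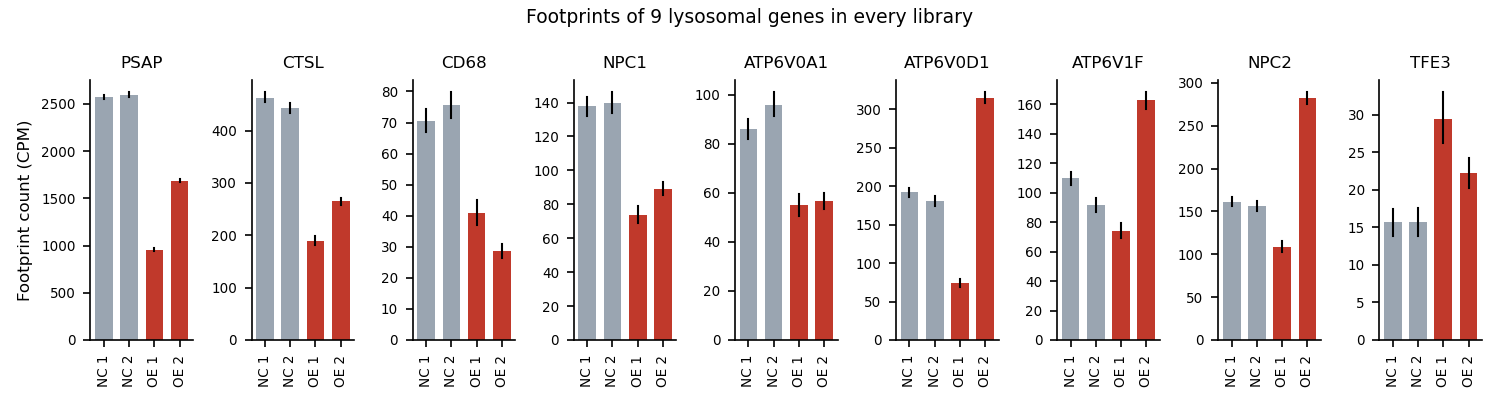
Footprints (CPM, axis from 0) of 9 lysosomal genes, picked after their values were seen to show the patterns in the text, in each of the 4 libraries; bars are single libraries and black lines exact Poisson 95% intervals of counting. PSAP, CTSL, CD68, NPC1 and ATP6V0A1 are lower in both OE libraries, ATP6V0D1, ATP6V1F and NPC2 lie below NC in OE replicate 1 and above it in OE replicate 2, and TFE3 is higher in both.

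Of the 8 glycosidases, which remove sugars from glycoproteins, glycolipids and glycans, 6 were lower in both OE libraries. That is 75%, beside 20.4% of all tested genes and 45% of the highest decile by NC level. GLB1, the beta-galactosidase used as a marker of senescence, had 397 and 393 CPM in NC against 223 and 276 CPM in OE. GUSB, beta-glucuronidase, had 190 and 176 CPM in NC against 108 and 135 CPM in OE. MAN2B1, an alpha-mannosidase, had 95.6 and 86.0 CPM in NC against 44.1 and 72.0 CPM in OE, and its 3 rows summed to 126 and 105 CPM in NC against 68.0 and 86.5 CPM in OE. These were the 3 glycosidases with the lowest p, at log2 fold changes of -0.66 (SE 0.41), -0.59 (SE 0.35) and -0.65 (SE 0.37), each with an edgeR adjusted p of 0.734. GAA, which breaks down glycogen, HEXA, a subunit of beta-hexosaminidase, and NAGLU, an enzyme of heparan sulfate breakdown, were lower by less, with -0.26, -0.20 and -0.23 in OE replicate 2. The other two went opposite ways in the OE libraries. NEU1, the sialidase, had 84.2 and 76.6 CPM in NC beside 45.0 and 129 CPM in OE replicates 1 and 2, and GLA, alpha-galactosidase A, had 118 and 104 CPM in NC beside 61.5 and 154 CPM in OE replicates 1 and 2.

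Among proteins of lipid breakdown and export, 2 stood well below NC in both OE libraries and NPC2 did not. PSAP, the precursor of the saposins that present lipids to their enzymes, had 2572 and 2597 CPM in NC against 957 and 1686 CPM in OE. Both OE libraries were well below an NC pair that hardly differed, at 0.370 and 0.652 of its mean, with a log2 fold change of -0.97 (SE 0.64; edgeR adjusted p = 0.734). NPC1 and NPC2, which hand cholesterol out of the lysosome in turn, parted. NPC1, a membrane protein, had 138 and 140 CPM in NC against 73.9 and 89.3 CPM in OE (139 ± 1.56 against 81.6 ± 10.9 CPM, SD, n = 2), giving a log2 fold change of -0.77 (SE 0.32). NPC2, its soluble partner, had 161 and 156 CPM in NC beside 109 and 282 CPM in OE replicates 1 and 2, the highest difference from NC of the 47 genes in that library (0.83). The depalmitoylating enzyme PPT1, progranulin (GRN) and acid ceramidase (ASAH1) were lower in both OE libraries, with differences in OE replicate 2 of -0.34, -0.22 and -0.19 against -1.35, -1.30 and -1.06 in OE replicate 1. The acid lipase LIPA overlapped. This made 5 of 7 (71.4%) lower in both, with a median log2 fold change of -0.67. The share was 20.4% over all tested genes and 45% in the highest decile by NC level.

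CD68 had the lowest p of all 47 genes and was the one furthest below NC in OE replicate 2. CD68, a heavily glycosylated protein of the lysosomal membrane best known from macrophages, had 70.6 and 75.5 CPM in NC against 40.8 and 28.7 CPM in OE. The groups did not overlap (73.1 ± 3.46 against 34.8 ± 8.57 CPM, SD, n = 2) and the log2 fold change was -1.07 (SE 0.33; unadjusted p = 0.0229, adjusted p = 0.734 by edgeR's quasi-likelihood test). The other macrophage markers were at or near a count of 0, apart from CD14, LYZ, at up to 3.11 CPM, and MRC1, with 17 counts in OE replicate 1. Their part in the CD68 values was not tested. SCARB2, the receptor that carries glucocerebrosidase to the lysosome, had 408 and 395 CPM in NC against 198 and 300 CPM in OE. The tetraspanin CD63 had 671 and 663 CPM in NC against 248 and 569 CPM in OE. LAMP1, with its relative LAMP2 the main glycoprotein coat of the inner face of the membrane, had 390 and 387 CPM in NC against 145 and 331 CPM in OE. In each of these 3 genes OE replicate 1 was the lower library by a wide margin. LAMP2 overlapped with NC in OE replicate 2 (185 CPM against 181 and 194 CPM). The calcium channel MCOLN1 and CLN3, a protein of the membrane mutated in juvenile Batten disease, lay above NC in OE replicate 2, with 0.32 and 0.25. CLN3 depended on its rows: the second row (ENSG00000261832) had 27.7 and 20.2 CPM in NC against 5.81 and 6.56 CPM in OE. The sum, 68.6 and 61.3 CPM in NC against 28.0 and 55.2 CPM in OE, was lower in both OE libraries, with a log2 fold change of -0.64 in place of -0.21. Of the 7 membrane proteins, 4 were lower in both OE libraries by their largest row. That is 57.1%, beside 20.4% of all tested genes and 45% of the highest decile by NC level.

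**Figure D3:**
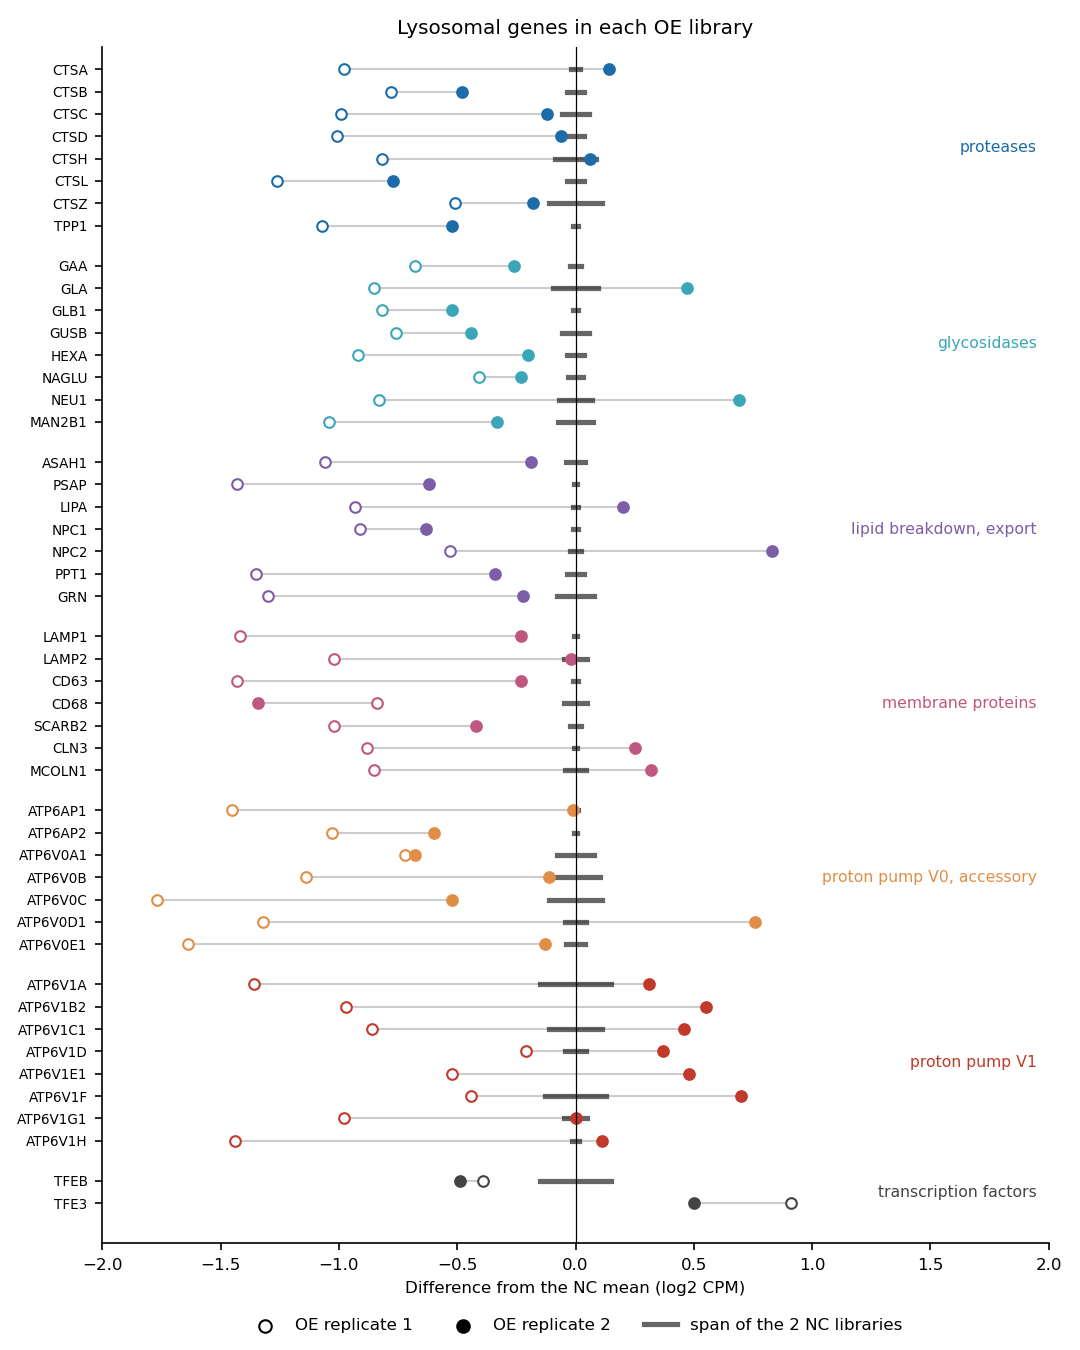
Difference of OE replicate 1 (open circles) and OE replicate 2 (filled circles) from the NC mean for each of the 47 genes by role, in log2 CPM; black bars span the 2 NC libraries around their mean. All genes but TFE3 lie left of 0 in OE replicate 1, while in OE replicate 2 the V1 subunits lie at or right of 0 and most others left of it.

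The listed subunits of the 2 sectors of the proton pump gave different counts in the same libraries, although the further V0 isoforms ATP6V0A2, ATP6V0E2 and TCIRG1, outside the 47, overlapped between the groups. Of the 7 V0 and accessory subunits, 6 (85.7%) were lower in both OE libraries. The share was 20.4% over all tested genes and 45% in the highest decile by NC level. For ATP6AP1, however, being lower rested on 467 CPM in OE replicate 2 against 473 and 468 CPM in NC. For ATP6V0B it rested on 169 CPM in OE replicate 2 against 197 and 170 CPM in NC. ATP6V0A1, the subunit through which protons enter and leave the membrane ring, had 85.9 and 96.0 CPM in NC against 54.9 and 56.7 CPM in OE. It was the gene whose OE libraries were closest to each other on the log2 scale among those lower in both, with a log2 fold change of -0.70 (SE 0.30; edgeR adjusted p = 0.734). ATP6AP2, the prorenin receptor, had 355 and 357 CPM in NC against 174 and 234 CPM in OE, giving a log2 fold change of -0.80 (SE 0.41). The ring protein ATP6V0C had 301 and 258 CPM in NC against 81.9 and 194 CPM in OE, and its difference of -1.77 in OE replicate 1 was the lowest of the 47 genes. The ring protein ATP6V0B and the small subunit ATP6V0E1 were within 0.13 of the NC mean in OE replicate 2. ATP6V0D1, which has no membrane span and couples the ring to the central stalk, was the exception, with 192 and 181 CPM in NC beside 74.2 and 315 CPM in OE replicates 1 and 2.

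None of the 8 V1 subunits was lower in both OE libraries or higher in both (0 and 0 of 8). The shares over all tested genes were 20.4% and 19.9%. All 8 had an NC mean of at least 50 CPM, and among genes at that level the shares were 35.6% and 5.07%. In OE replicate 1 all 8 lay below both NC libraries, as did 46 of the 47 lysosomal genes. So did 45.5% of all tested genes and 78.7% of those with an NC mean of at least 50 CPM. In OE replicate 2, 7 of the 8 lay above both NC libraries, as did 42.8% of all tested genes, and 0 below both, against 42.5%. Among genes with an NC mean of at least 50 CPM, 41.6% lay above both in OE replicate 2 and 48.1% below both. Outside V1 and the transcription factors, 8 of 37 lay above both in that library and 27 below both. The median in OE replicate 2 was 0.42 for V1, -0.13 for V0 and accessory subunits and between -0.25 and -0.15 for the hydrolase, lipid and membrane groups. ATP6V1F, a central stalk subunit, had 110 and 91.4 CPM in NC beside 74.1 and 163 CPM in OE replicates 1 and 2. ATP6V1B2 and ATP6V1A, of the ATP-splitting head, had 60.7 CPM in both NC libraries against 31.0 and 88.8 CPM, and 162 and 199 CPM in NC against 70.1 and 222 CPM. Subunits of the stalks followed, among them ATP6V1E1 with 102 CPM in both NC libraries and 71.1 and 142 CPM in OE, ATP6V1C1 with differences of -0.86 and 0.46, and ATP6V1D with -0.21 and 0.37. ATP6V1H, a regulatory subunit, and ATP6V1G1, of the outer stalks, had the lowest p of the sector, with log2 fold changes of -0.46 (SE 0.56) and -0.41 (SE 0.47) and edgeR adjusted p of 0.827 and 0.819. In ATP6V1G1 the difference in OE replicate 2 was 0.00. The difference between the sectors was not tested.

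**Figure D4:**
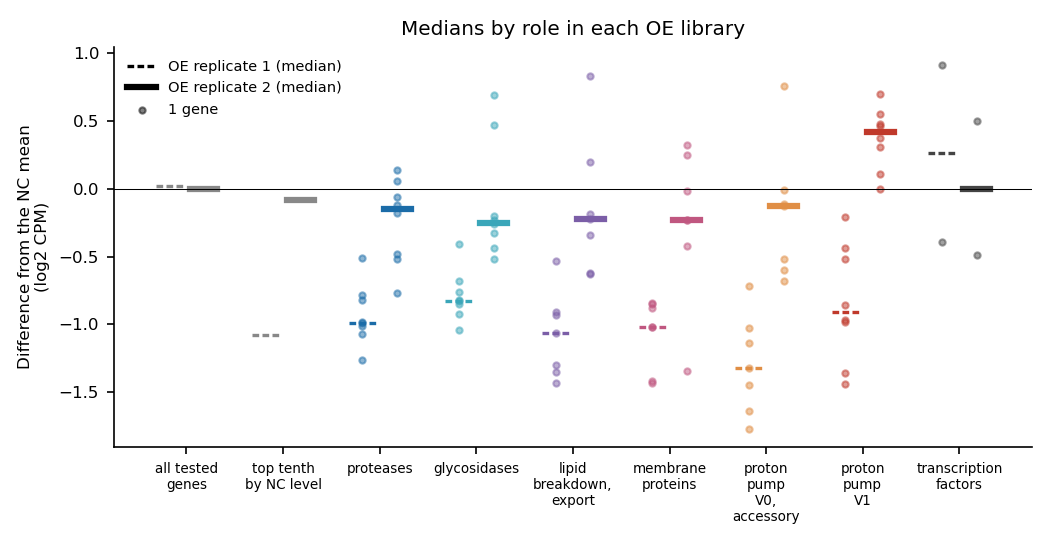
Difference from the NC mean (log2 CPM) in OE replicate 1 (left of each pair, dashed median) and OE replicate 2 (right, solid median) for all tested genes, the highest decile of genes by NC level, and each role; points are single lysosomal genes. In OE replicate 1 every role but the transcription factors has a median between -1.32 and -0.83, and in OE replicate 2 the V1 median of 0.42 is above 0 where the other pump, hydrolase and membrane medians lie between -0.25 and -0.13.

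Since the OE libraries disagreed, each was also set against NC alone, in fits that take the spread from the NC pair and assume that the lone OE library varies in the same way. With OE replicate 2 only, 12 of the 47 genes were called lower, beside 17.3% of all genes, and 9 higher, beside 16.8%. The 12 were CTSB, CTSL, TPP1, GLB1, GUSB, PSAP, NPC1, CD68, SCARB2, ATP6AP2, ATP6V0A1 and ATP6V0C. The 9 were GLA, NEU1, NPC2, ATP6V0D1, ATP6V1B2, ATP6V1C1, ATP6V1E1, ATP6V1F and TFE3. With OE replicate 1 only, 44 genes were called lower, beside 30.8% of all genes, and 1, TFE3, higher, beside 30.1%; ATP6V1D and TFEB were not called. The fits share their NC libraries. The shares are over genes of every level, and abundant genes were mostly low in OE replicate 1. It lay below both NC libraries for 78.7% of genes with an NC mean of at least 50 CPM. CD68 had log2 fold changes of -1.35 with OE replicate 2 only (edgeR adjusted p = 5.97e-08) and -0.88 with OE replicate 1 only (edgeR adjusted p = 4.54e-05). For ATP6V0D1 they were 0.76 (edgeR adjusted p = 2.17e-05) and -1.37 (edgeR adjusted p = 5.40e-09), and for TFE3 0.51 (edgeR adjusted p = 0.0356) and 0.87 (edgeR adjusted p = 2.23e-04). Such calls describe single OE libraries and not the plasmid's effect.

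Other genes of the organelle, from a list outside the 47, were read from the same fit. Of 107 listed symbols 105 were in the tables and 92 were tested, and 0 passed the threshold, with 6 at an unadjusted p below 0.05. Of 30 other hydrolases and activators, 20 (66.7%) lay lower in both OE libraries and 3 (10%) lay higher, beside 20.4% and 19.9% of all tested genes and 35.6% and 5.07% of those with an NC mean of at least 50 CPM. MANBA, a beta-mannosidase, had 105 and 108 CPM in NC against 61.4 and 54.8 CPM in OE (log2 fold change -0.87, SE 0.30), while HGSNAT, an acetyltransferase of heparan sulfate breakdown, had 10.7 and 11.7 CPM in NC against 34.3 and 13.7 CPM in OE. Of 23 other membrane proteins 7 were lower (30.4%) and 4 higher (17.4%), against the same 20.4% and 19.9% of all tested genes. The lowest p among them was that of the cobalamin exporter LMBRD1, at 107 and 111 CPM in NC against 32.6 and 56.6 CPM in OE, followed by LAPTM4B, at 76.3 and 71.2 CPM in NC against 31.3 and 45.1 CPM in OE. Of 6 further pump subunits 0 were lower (0%) and 1 was higher (16.7%), beside 20.4% and 19.9% of all tested genes. The higher one was the V1 isoform ATP6V1G2, at under 1 CPM in every library, and ATP6V1E2 was as scarce in 3 of the 4. The V0 isoforms among the 6, named after their values were seen, were not lower in both OE libraries either. ATP6V0A2 had 33.8 and 37.7 CPM in NC against 30.5 and 52.4 CPM in OE, and ATP6V0E2 had 26.7 and 28.5 CPM in NC against 16.2 and 47.2 CPM in OE, both below NC in OE replicate 1 and above it in OE replicate 2. TCIRG1 had 55.7 and 44.8 CPM in NC against 80.2 and 46.7 CPM in OE, and ATP6V0A4 was under 1 CPM in every library.

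A smaller share of the sorting and sensing genes than of the 47 lay lower in both OE libraries, but their footprint counts were also lower. The median NC level was 28.8 CPM for the sorting genes and 48.3 CPM for the sensing genes, against 186 CPM for the 47. How much of the difference goes with level was not tested. Among 10 sorting receptors and tagging enzymes 2 lay lower in both OE libraries (20%, beside 20.4% of all tested genes) and 3 lay higher (30%, beside 19.9%). The adaptors GGA1 and GGA2, which load mannose 6-phosphate receptors into Golgi vesicles, had the lowest p. GGA2 had 29.6 and 34.6 CPM in NC against 61.6 and 52.0 CPM in OE (log2 fold change 0.82, SE 0.30), and GGA1 had 17.0 and 14.5 CPM in NC against 55.6 and 22.6 CPM in OE. Among 23 genes of nutrient sensing at the lysosome and TFEB control 3 were lower (13%) and 6 higher (26.1%), beside 20.4% and 19.9% of all tested genes. For reading both lists by level, 14.1% of genes with an NC mean under 50 CPM were lower and 26% higher. Of the rest, 35.6% were lower and 5.07% higher. MLST8, a subunit of the mTOR complexes, had 54.1 and 47.5 CPM in NC against 103 and 91.2 CPM in OE (log2 fold change 0.94, SE 0.31), and folliculin (FLCN), which acts on the Rag GTPases that recruit TFEB and TFE3, had 31.4 and 33.9 CPM in NC against 38.2 and 59.3 CPM in OE. For all genes named from this list outside the 47 the edgeR adjusted p was between 0.734 and 0.922.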

How the data were processed

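The authors deposited a count for each Ensembl gene in every library, per the file headers. These are taken as an estimated count, since the deposited values held a fraction in 13.8% to 14.7% of genes, and were rounded to whole numbers. Per the submitters' processing notes, the genome build was hg18 and the tools included RSEM, HISAT2 and StringTie, with fastp and Bowtie2. The versions, annotation, strand and handling of multi-mapping reads, not given in the sources used here, limit this: overlapping genes and rows that share a symbol cannot be told apart with certainty.

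The test was that of edgeR 4.0.16 under R 4.3.3 (filterByExpr with a minimum count of 10, TMM scaling, quasi-likelihood fit on the group alone, p-values adjusted by Benjamini-Hochberg over 12560 genes, threshold 0.05) and DESeq2 1.42.0 as an alternative. TMM factors were 0.889 and 0.912 for NC and 1.36 and 0.907 for OE. CPM used the TMM-scaled totals, so 3 counts, the limit that a count of 0 allows, are 0.136 to 0.286 CPM. Differences per library are on log2 CPM with a prior count of 2. The steps were run on simulated data with less spread than these libraries and larger changes than those of the lysosomal genes. The simulation had no level-dependent shift, so it cannot show how the test performs here. Replicates were compared first: chi-square per degree of freedom was 13.0 for NC and 330 for OE, so no library was a repeat.

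The 47 genes, roles and lists were chosen with earlier results of these data known. Values are given for the 2 genes of each role with the lowest p, the one with the largest footprint count, TFEB and TFE3; others named were chosen after their values were seen. Coding lengths were not used here, so levels are not compared between genes.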

Additional observations from a re-analysis of the deposited data

How the results depend on the processing

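All 47 genes stayed uncalled in every alternative over all 4 libraries; those over the whole table called 25 genes (DESeq2), 29 (likelihood ratio test) and 24 (replicate block) in place of 0. The labels do not say that the shared replicate numbers pair libraries, and the deviations of same-numbered libraries had a correlation of -0.0974 over genes. With the replicate block the median over the 47 was -0.56 in place of -0.47, and NEU1, ATP6V0D1 and ATP6V1E1 turned to -0.07, -0.28 and -0.02. Library totals as the only scaling raised the median of all genes from 0.09 to 0.40; the median over the 47 was then -0.25, of the transcription factors 0.47 and of the other lysosomal genes 0.20, with 24 lower in both OE libraries and 5 higher, beside 11.7% and 30.2% of all genes so scaled. GLA, CLN3, MCOLN1, ATP6V1B2 and ATP6V1C1 turned to 0.16, 0.01, 0.07, 0.17 and 0.15, and V1 to a median of 0.16. The number of the 47 lower in both OE libraries, 28 in the main fit, also moved with other settings. It was 25 with RLE scaling and with DESeq2's scaling, each beside 20% of all genes. With no filter it was 26, beside 18.7%, and with rows of a symbol summed 29, beside 20.4%.

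Leaving out 1 library gave between 7 (without NC replicate 2) and 7969 calls over all genes (without OE replicate 2), 0 to 45 of the 47, 28 to 46 of them lower and 1 to 16 higher, 0 to 61 of the other lysosomal genes called, and a median of -0.35 to -0.04 for the latter. The lowest value was without OE replicate 2 and the highest without OE replicate 1 for each of these genes: CTSA -1.02 to 0.14, CTSH -0.87 to 0.06, GLA -0.89 to 0.47, NEU1 -0.88 to 0.69, LIPA -0.97 to 0.20, NPC2 -0.57 to 0.83, CLN3 -0.93 to 0.25, MCOLN1 -0.90 to 0.32, ATP6V0D1 -1.37 to 0.76, ATP6V1A -1.41 to 0.30, ATP6V1B2 -1.01 to 0.55, ATP6V1C1 -0.90 to 0.46, ATP6V1D -0.25 to 0.37, ATP6V1E1 -0.56 to 0.48, ATP6V1F -0.48 to 0.70, ATP6V1G1 -1.02 to 0.00 and ATP6V1H -1.49 to 0.12. The cause was not tested. The other 30 genes kept their direction in every alternative. Without OE replicate 1, 28 of the 47 (59.6%) lay lower and 16 (34%) higher, beside 42.4% and 42.8% of all genes. Without OE replicate 2 it was 46 and 1, beside 45.5% and 46.9%. Without NC replicate 1 it was 28 and 1, beside 24.8% and 25.8%. Without NC replicate 2 it was 30 and 1, beside 26% and 25.4%. These shares are over genes of every level. In the main fit, OE replicate 1 lay below both NC libraries for 78.7% of genes with an NC mean of at least 50 CPM. In the highest decile by NC level it was 91.6%. Calls among the other lysosomal genes rose with those over all genes, and any difference between the 2 was not tested.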
